A study of Mus musculus with 6 samples.

Results

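The genes described here are 9 members of the tumour necrosis factor (TNF) ligand and receptor families. They are the RANKL axis, made of Tnfsf11, Tnfrsf11a and Tnfrsf11b, and the other 6 genes Tnfsf10, Tnfsf4, Tnfsf8, Tnfrsf8, Tnfrsf19 and Tnfrsf21. They were chosen by name, with the positions of listed regions near them already known, out of 21887 protein-coding genes. A region was counted for a gene when its centre lay inside the gene span or within 100 kb of it. By that rule 16 of the 6502 regions in the deposited list belonged to the 9 genes, and none was counted for more than 1 of the 9.

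The list comes from ATAC-seq, which uses a transposase to cut and tag open chromatin, on mouse prostate basal stem cells isolated by flow cytometry. Inflamed prostates gave 3 libraries, labelled POET3, a line named for its prostate expression of ovalbumin. These mice had received activated splenocytes from OT-1 mice, and prostates were collected 7 days later. The 3 libraries from naive prostates are labelled WT, whereas the extraction text names POET3 animals for both groups. Whether genotype differed between the groups is therefore not known. If the labels hold, genotype and inflammation cannot be told apart. Cells of both groups were freshly sorted, negative for the leukocyte marker CD45 and the endothelial marker CD31 and positive for Sca-1 and CD49f. Age, and whether animals were pooled, are not given in the sources used here.

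The list has 3 columns, chromosome, start and end, and is read here as regions that differ between inflamed and naive libraries because its name includes "diff" and edgeR is among the named tools. It gives no signal, direction, p-value or value per library. A region near one of these genes is therefore a position only. Whether it was more or less open in inflamed cells is not known, no replicate error can be given, depth is unknown and no test between the groups was possible. Without levels, the basal label could not be checked against its markers. For orientation, a listed region lay within 100 kb of 6 of 8 basal, 6 of 8 luminal, 6 of 8 endothelial, 5 of 8 fibroblast and smooth muscle, 4 of 10 T cell and 3 of 8 myeloid marker genes, against 42.7% of all protein-coding genes. These counts are not all independent, as the regions counted for the luminal gene Krt19 were also counted for the basal gene Krt15. The part of other cell types in the regions below was not tested.

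RANKL, the product of Tnfsf11, is a cytokine that binds RANK, the receptor encoded by Tnfrsf11a, and RANK passes the signal through TRAF adaptors to NF-kB and MAP kinases. Osteoprotegerin, the product of Tnfrsf11b, is a secreted decoy receptor that binds RANKL and keeps it from RANK. The axis is best known for driving osteoclast formation in bone, and in the mammary gland it carries a progesterone signal to epithelial progenitor cells. The other ligands and receptors described here serve cell death, T cell costimulation and epithelial or neural development.

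Start sites and promoter sequences were available in RefSeq (GRCm38.p6, the assembly of mm10) for 7 of the 9 genes, with 2 promoters for Tnfrsf19. Distances before or after a start site are counted from these start sites, and other distances to a gene from an end of its span. Tnfsf4 and Tnfrsf11b had no entry. No listed region overlapped any of these 8 promoter windows, which run from 250 bases before to 50 bases after the start, and 727 of the 32851 windows in the table (2.21%) were overlapped. The 250 bases before the start are shown for the RANKL pair, for Tnfsf10, whose start lay closest to a listed region, and for Tnfrsf8, whose window held the widest mix of the motifs searched. Each is printed 5′ to 3′ on the gene's own strand, and capitals mark motif matches.
Tnfsf11, chr14:78308044-78308293, minus strand: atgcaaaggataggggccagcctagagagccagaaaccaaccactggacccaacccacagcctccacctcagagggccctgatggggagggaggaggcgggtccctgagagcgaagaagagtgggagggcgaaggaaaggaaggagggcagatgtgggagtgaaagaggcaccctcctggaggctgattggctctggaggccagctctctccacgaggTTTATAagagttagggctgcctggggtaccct
Tnfrsf11a, chr1:105780473-105780722, plus strand: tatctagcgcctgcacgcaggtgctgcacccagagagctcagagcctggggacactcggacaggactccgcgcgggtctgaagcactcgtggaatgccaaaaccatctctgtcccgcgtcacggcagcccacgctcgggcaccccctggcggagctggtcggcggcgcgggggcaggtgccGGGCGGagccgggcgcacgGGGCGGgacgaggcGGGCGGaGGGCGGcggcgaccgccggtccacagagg
Tnfsf10, chr3:27316827-27317076, plus strand: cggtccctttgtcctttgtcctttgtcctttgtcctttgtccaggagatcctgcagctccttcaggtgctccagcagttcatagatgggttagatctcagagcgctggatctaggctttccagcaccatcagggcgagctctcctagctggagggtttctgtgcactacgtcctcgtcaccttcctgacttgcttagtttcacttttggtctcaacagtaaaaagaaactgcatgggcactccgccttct
Tnfrsf8, chr4:145315165-145315414, minus strand: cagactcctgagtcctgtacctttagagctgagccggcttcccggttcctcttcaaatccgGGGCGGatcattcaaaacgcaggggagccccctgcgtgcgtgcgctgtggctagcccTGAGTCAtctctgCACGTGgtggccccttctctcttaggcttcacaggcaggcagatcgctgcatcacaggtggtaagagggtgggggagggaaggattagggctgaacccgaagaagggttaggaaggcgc

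The promoters of the pair differ in make-up. The 300-base window of Tnfsf11 had 61.7% G and C and a TATA match (TATAAA, read here on the other strand) that begins 32 bases before the start. The window of Tnfrsf11a had 76.7% G and C, no TATA match and 5 GC boxes (GGGCGG), against a median of 52.7% G and C over all windows. On either strand, TATAAA occurred in 1 of the 8 member windows and in 13.6% of all, and GGGCGG in 4 of 8 and in 35.7% of all. An AP-1 match (TGANTCA) was found in the Tnfrsf8 window alone among the 8, and in 7.81% of all windows. E-boxes (CACGTG) were found in 3 of the 8 (Tnfrsf8, Tnfrsf19 and Tnfrsf21) and in 7.15% of all, and a STAT match (TTCNNNGAA) in 1 of the 8 (Tnfrsf19) and in 8.30% of all. The searches for NF-kB (GGANTTTCC, in 1.25% of all windows), the steroid receptor core (ACANNNTGT, 6.85%) and RUNX (TGTGGT, 16.8%) gave no match in the 8. None of these letters overlapped another motif's match in the printed stretches. A match describes the letters only, and the sequence of the 16 listed regions was not used here.

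All 9 genes had a region by the way they were chosen, so the count is given beside the background without a test. Of the 9, 3 had a single region, 5 had 2 regions and 1 had 3 regions. Among all protein-coding genes, 24.8% had a single region, 10.4% had 2 and 4.66% had 3, while 57.3% had none. At least 2 regions were found at 6 of the 9 and at 17.9% of all protein-coding genes, and at least 3 at 1 of the 9 and at 7.47% of all. The 9 genes span 22.6 to 83.0 kb, against a median of 17.2 kb for all. Among the 6283 protein-coding genes in that span range, 48.6% had a region, 20.5% had at least 2 and 12.4% had one inside the span.

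**Figure D1:**
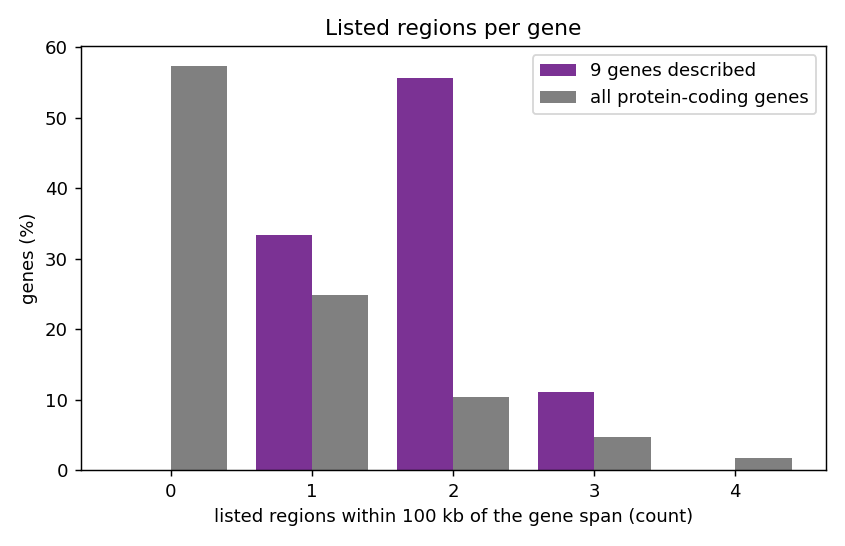
Percent of genes (y axis) by the number of listed regions within 100 kb of the gene span (x axis, 0 to 4), for the 9 genes and for all 21887 protein-coding genes, which also include genes with more regions than are drawn. Of the 9 genes, 5 had 2 regions, a number found at 10.4% of all protein-coding genes, and the absence of a bar at 0 follows from how the genes were chosen.

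Nearly all listed regions have 1 of 2 widths, of which 143 bases was the commoner here. Of the 16 regions, 11 (68.8%) were 143 bases wide and 5 were 451 bases wide, whereas 49.4% of the whole list was 143 bases wide. Only 143-base regions were found at 5 genes (Tnfsf11, Tnfrsf11a, Tnfsf10, Tnfsf8 and Tnfrsf21) and only 451-base regions at 2 (Tnfsf4 and Tnfrsf19). Tnfrsf11b and Tnfrsf8 had both widths, as did 6.00% of all protein-coding genes. A 143-base region was thus present at 7 of the 9 (29.0% of all protein-coding genes) and a 451-base region at 4 of the 9 (19.7% of all). The 9 were chosen with a region near them, whereas 57.3% of all protein-coding genes had none, so these shares are not like for like. Of the 9343 protein-coding genes with a region, 6347 had a 143-base region, 4309 a 451-base region and 1314 both. What the widths stand for is not given in the sources used here.

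None of the 16 was centred within 1 kb of an end of its gene, and 4 were within 10 kb of one. These distances are to either end of the gene, not to its start site. The share of the whole list at such distances was not counted, so they describe the 16 only. Inside the gene lay 4 regions, 1 each at Tnfrsf11b, Tnfsf10, Tnfrsf8 and Tnfrsf19, so that 4 of the 9 genes held a region in their span, against 10.2% of all protein-coding genes. Of the 9343 protein-coding genes with a region within 100 kb, 2228 held one in their span. Counted by region the order was the other way, with 5 of the 16 (31.2%) inside any protein-coding gene, the one in Mipep included, against 55.4% of the 5587 listed regions inside or within 100 kb of a protein-coding gene. The other 12 lay 5.95 to 90.1 kb outside the span, with a median of 43.3 kb. The widths fell differently on these places. Of the 4 inside, 3 were 451 bases wide, and of the 12 outside, 10 were 143 bases wide. Over the whole list, 51.2% of regions inside protein-coding genes were 451 bases wide and 52.6% of those outside but within 100 kb were 143 bases wide. With 16 regions the split by width is a description and was not tested.

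**Figure D2:**
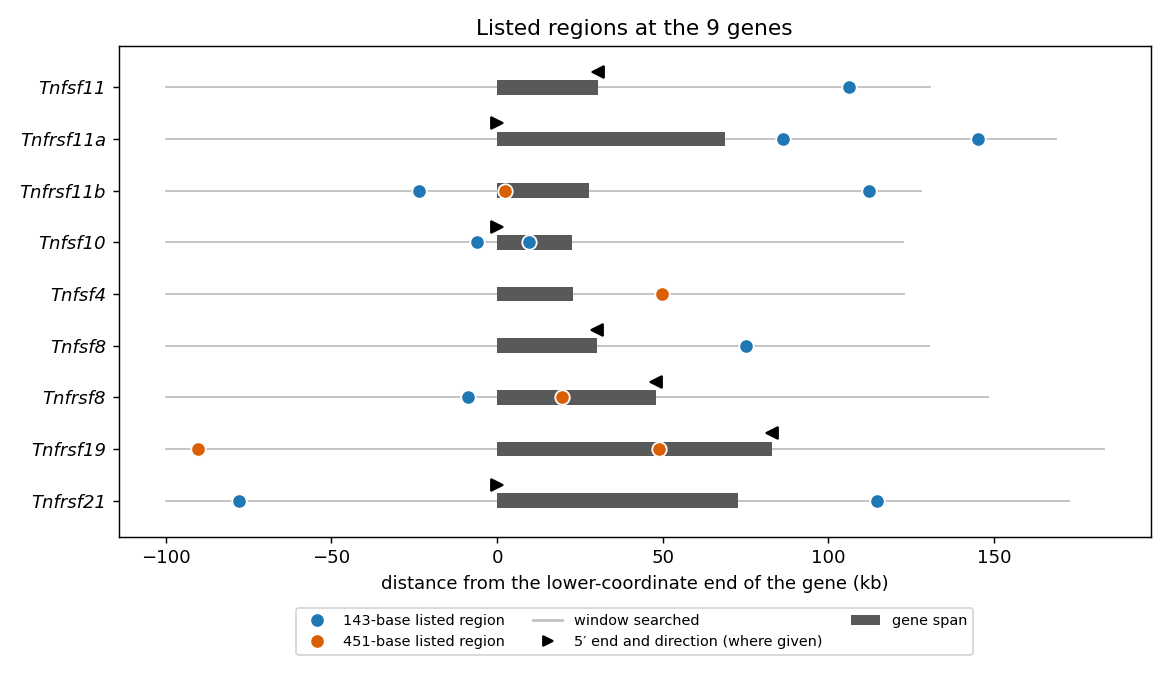
Position of each listed region (circles, blue for 143 and orange for 451 bases) against distance in kb from the lower-coordinate end of each gene, with the gene span as a dark bar, the searched window as a grey line and an arrowhead at the 5′ end where RefSeq gave the strand. Of the 5 orange circles, 3 lie on the gene bars of Tnfrsf11b, Tnfrsf8 and Tnfrsf19 and 2 lie outside a bar, at Tnfsf4 and Tnfrsf19, and 10 of the 11 blue circles lie outside a bar.

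Tnfsf11 (NCBI gene 21943) spans 78277446 to 78308043 on chromosome 14 and is read from the minus strand. It had a single region of 143 bases, at chr14:78383448-78383590. Its centre lay 75.5 kb before the start site, that is, beyond the 5′ end. No other protein-coding gene lay in the 100-kb window, the next nearest being Akap11 at 108.7 kb, and the nearest gene of any kind was the pseudogene Gm18277 at 35.2 kb. The region stood alone, with its nearest listed neighbour 349 kb away, against a median of 67.9 kb over the list. Far-upstream enhancers of mouse Tnfsf11 that answer to vitamin D and parathyroid hormone are known from bone cells. Their coordinates were not used here, and whether this region coincides with one was not tested.

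Tnfrsf11a (gene 21934) spans 105780673 to 105849444 on chromosome 1 and is read from the plus strand. It had 2 regions of 143 bases, both beyond the 3′ end. The first, at chr1:105866997-105867139, was 17.6 kb outside the span and 86.3 kb after the start site, within the long non-coding RNA gene Gm41926. The second, at chr1:105925659-105925801, was 76.3 kb outside the span, within the non-coding gene Gm41927, and closer to Zcchc2, at 64.7 kb, than to Tnfrsf11a. The pair were 58.7 kb apart. No region lay inside the receptor gene or before its start within the window.

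Tnfrsf11b (gene 18383) spans 54250619 to 54278484 on chromosome 15 and had the most regions of the 9 genes, 3. It was also the only one of the RANKL axis with a region inside the gene. That region, at chr15:54252658-54253108, was 451 bases wide and lay 2.26 kb inside the lower end, the closest to a gene end of all 16. A 143-base region at chr15:54227096-54227238 was 23.5 kb below the lower end, 25.7 kb from the one inside. The third, 143 bases at chr15:54362930-54363072, was 84.5 kb above the upper end and nearer to Colec10, at 47.8 kb. No other protein-coding gene lay in this window.

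The axis as a whole thus had 6 regions, 5 of them of 143 bases, and 5 of the 6 lay outside the genes at 17.6 to 84.5 kb. The remaining 6 genes had 10 regions, 6 of 143 bases, with 7 outside at 5.95 to 90.1 kb. Measured outside the span, the median distance was 75.5 kb for the axis and 41.9 kb for the remaining genes. With 5 and 7 regions outside and no replicate values, that difference was not tested.

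Tnfsf10 (gene 22035, chromosome 3, 27317077 to 27339665, plus strand) encodes TRAIL, a ligand that starts apoptosis through death receptors and is also bound by osteoprotegerin. Its 2 regions were both 143 bases wide and lay on both sides of the start site. One, at chr3:27311061-27311203, was 5.95 kb before the start, the region closest to a start site among the 7 genes with one. The other, at chr3:27326734-27326876, was 9.73 kb after it, inside the gene, and was the only 143-base region of the 16 that lay inside a gene. They were 15.7 kb apart, the closest pair at any of the 9 genes. The nearest other protein-coding gene to either was Ghsr, at 44.5 kb or more.

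Tnfsf4 (gene 22164, chromosome 1, 161395438 to 161418206) encodes OX40L, which costimulates T cells through OX40. Its single region, 451 bases at chr1:161444834-161445284, lay 26.9 kb above the gene. It sits between Tnfsf4 and the family gene Tnfsf18, which encodes GITR ligand and was 49.6 kb from it, and falls in the window of both. Tnfsf8 (gene 21949, chromosome 4, 63831202 to 63861508, minus strand) encodes the CD30 ligand. Its single region, 143 bases at chr4:63906125-63906267, lay 44.9 kb before the start site, between Tnfsf8 and Tnc, the gene for the matrix protein tenascin C, which was 53.6 kb away. Neither gene had a region inside its span.

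Tnfrsf8 (gene 21941, chromosome 4, 145267132 to 145315164, minus strand) encodes CD30, the receptor of the Tnfsf8 product. It had 1 region of each width. The 451-base region at chr4:145286552-145287002 was inside the gene, 28.4 kb after the start site. The 143-base region at chr4:145258186-145258328 was 8.88 kb beyond the 3′ end, in the non-coding gene Gm36233. It lay between Tnfrsf8 and its neighbour Tnfrsf1b, the gene of TNF receptor 2, which was 11.4 kb away. Both regions fall in the 100-kb window of Tnfrsf1b as well. That the ligand and receptor genes of the CD30 pair both had listed regions, as had those of RANKL and RANK, follows from how the 9 were chosen.

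Tnfrsf19 (gene 29820, chromosome 14, 60963834 to 61046855, minus strand) encodes TROY, a receptor known as a Wnt target and stem cell marker in intestine. Both of its regions were 451 bases wide. One, at chr14:61012578-61013028, lay inside the gene, 25.2 kb after one RefSeq start site and 34.1 kb after the other. The other, at chr14:60873521-60873971, was 90.1 kb beyond the 3′ end and inside another gene, Mipep, which encodes a mitochondrial peptidase. Of the 16 regions it was the only one inside a different protein-coding gene.

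Tnfrsf21 (gene 94185, chromosome 17, 43016555 to 43089188, plus strand) encodes the death-domain receptor DR6. Its 2 regions were both 143 bases wide and flanked the gene. One, at chr17:42938675-42938817, lay 77.8 kb before the start site and nearer to Cd2ap, at 62.0 kb. The other, at chr17:43130982-43131124, lay 41.9 kb beyond the 3′ end, with Tnfrsf21 as its nearest protein-coding gene. They were 192 kb apart, and no other protein-coding gene lay in the window.

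Among the chosen genes, ligand and receptor genes differed in where their regions stood. The 4 ligand genes had 5 regions and the 5 receptor genes had 11. Each of the 5 ligand regions had its ligand gene as the nearest protein-coding gene, whereas 4 of the 11 receptor regions were nearer to or inside another gene (Zcchc2, Colec10, Mipep and Cd2ap). Among the 7 genes with a start site, 3 of the 4 ligand regions lay before the start and 1 inside the gene. Of the 8 receptor regions at such genes, 1 lay before the start, 2 lay inside and 5 lay beyond the 3′ end. These are counts over few regions and were not tested. The nearest-gene contrast did not extend to the other ligand genes searched. The regions counted for Cd70, Tnfsf14, Tnfsf12, Tnfsf13, Tnfsf13b, Tnfsf15 and Tnfsf18 were each nearer to or inside another protein-coding gene. Cd40lg held its own region, and Eda had 1 region inside it and 1 nearer to Awat2. The contrast therefore describes the chosen genes and not ligand genes in general.

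Just inside the 100-kb limit were the regions at 90.1 kb from Tnfrsf19 and 84.5 kb from Tnfrsf11b. Just outside it was a 451-base region 102 kb beyond Tnfrsf21, followed by a 143-base region 136 kb below Tnfrsf11b. The next listed region was at 144 kb for Tnfsf4, 161 kb for Tnfsf10 and 191 kb for Tnfsf8, and between 256 and 396 kb for Tnfsf11, Tnfrsf11a, Tnfrsf8 and Tnfrsf19. Within 10 kb of the span, 4 of the 9 genes had a region (Tnfrsf11b, Tnfsf10, Tnfrsf8 and Tnfrsf19), against 15.2% of all protein-coding genes. With each region given to 1 protein-coding gene only, 12 of the 16 were given to these genes and each of the 9 kept at least 1, against 16.9% of all protein-coding genes that were given one. Both comparisons set genes chosen for a nearby region against all genes, of which 57.3% had none within 100 kb. Of the 9343 protein-coding genes with a region, 3322 had one within 10 kb and 3708 were given one.

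The wider family shows what surrounds these genes. Of the 46 TNF ligand and receptor genes searched, the 9 included, 36 had a region within 100 kb. Of the 37 that are not among the 9, 27 (73.0%) had one, namely 9 of 14 ligand and 18 of 23 receptor genes, against 42.7% of all protein-coding genes. This count moves with how windows overlap. The 36 genes shared 46 distinct regions, 10 of these fell in the windows of 2 or 3 family genes, and 14 genes had shared regions only. With each region given to 1 gene, 8 of the 37 (21.6%) had one, against 16.9% of all. Within 10 kb it was 7 of 37 (18.9%), against 15.2%, and inside the span 3 of 37 (8.11%), against 10.2%. A median of 1 other protein-coding gene reached into the windows of the 9 and of 5 into those of the 37, against 4 for all protein-coding genes.

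**Figure D3:**
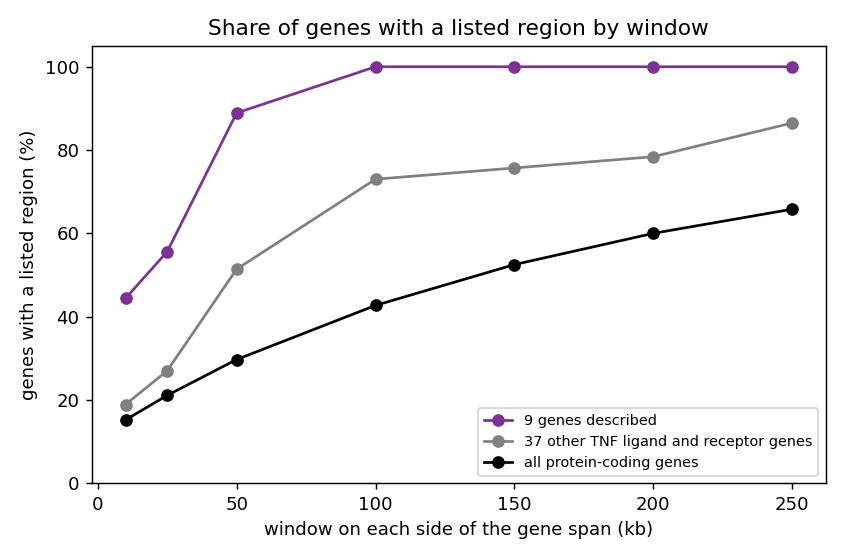
Percent of genes with a listed region (y axis) by the window allowed on each side of the gene span (x axis, 10 to 250 kb) for the 9 genes, the 37 other TNF ligand and receptor genes and all protein-coding genes. At 10 kb the values were 44.4%, 18.9% and 15.2%, and at 100 kb, the window by which the 9 were chosen, 100%, 73.0% and 42.7%.

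By width, the 37 other family genes differed from the background within 100 kb mainly in the 143-base regions, which was not tested. Of the 37, 22 (59.5%) had a 143-base region, against 29.0% of all protein-coding genes, and 7 (18.9%) had a 451-base region, against 19.7%. Shared windows add to the first count, and widths within 10 kb or with 1 gene per region are not given here. A single 143-base region at chr7:143629618-143629760 was counted for the receptor genes Tnfrsf22, Tnfrsf23 and Tnfrsf26, and 2 regions of that width on chromosome 6 were each counted for Tnfrsf1a (TNF receptor 1), Ltbr (lymphotoxin beta receptor) and Cd27. Another on chromosome 17 was counted for Cd70 and Tnfsf14, another on chromosome 11 for Tnfsf12 and Tnfsf13, and 2 on chromosome 4 for both Tnfrsf4 and Tnfrsf18.

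Outside the 9, the regions centred closest to an end of a family gene were at Eda, which encodes ectodysplasin, a ligand of skin appendage development, and at the death receptor gene Fas. The 451-base region at Eda was centred 0.158 kb inside the gene end on chromosome X and covered its RefSeq start site. It was the only promoter window among the 46 family genes, as far as the table holds them, that a listed region overlapped. The 67 bases of that region that lie before the start, with GC boxes (GGGCGG or its reverse complement) in capitals, are shown because this region covers a start site.
Eda, chrX:99975539-99975605, plus strand: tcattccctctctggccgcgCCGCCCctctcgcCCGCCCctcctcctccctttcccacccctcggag

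Fas had 6 regions in its window, the nearest a 451-base region 0.451 kb beyond its upper end. Those below its lower end were nearer to or inside Acta2, and the farthest, at 96.4 kb, was nearer to Ch25h. Cd40lg, the gene of CD40 ligand, held a 451-base region, 0.553 kb from its upper end, and Ngfr, the p75 neurotrophin receptor gene, a 143-base region 7.24 kb from its end. Further out were Tnfrsf12a, with 3 regions from 17.2 kb that were each nearer another gene, Tnfrsf17 at 27.2 kb, Edar at 33.5 kb and Eda2r at 54.4 kb. The regions nearest to Tnfsf13b, Tnfsf15, Tnfrsf25, Tnfrsf14 and Relt were 71.1 to 84.6 kb away. Without a region within 100 kb were Tnf, Lta and Ltb, which adjoin each other on chromosome 17 with the nearest region at 351 to 361 kb, and also Fasl, Tnfsf9, Cd40, Tnfrsf9, Tnfrsf10b, Tnfrsf13b and Tnfrsf13c. Tnfrsf10b, which encodes the death receptor for TRAIL in mouse, was 150 kb from its nearest region.

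**Figure D4:**
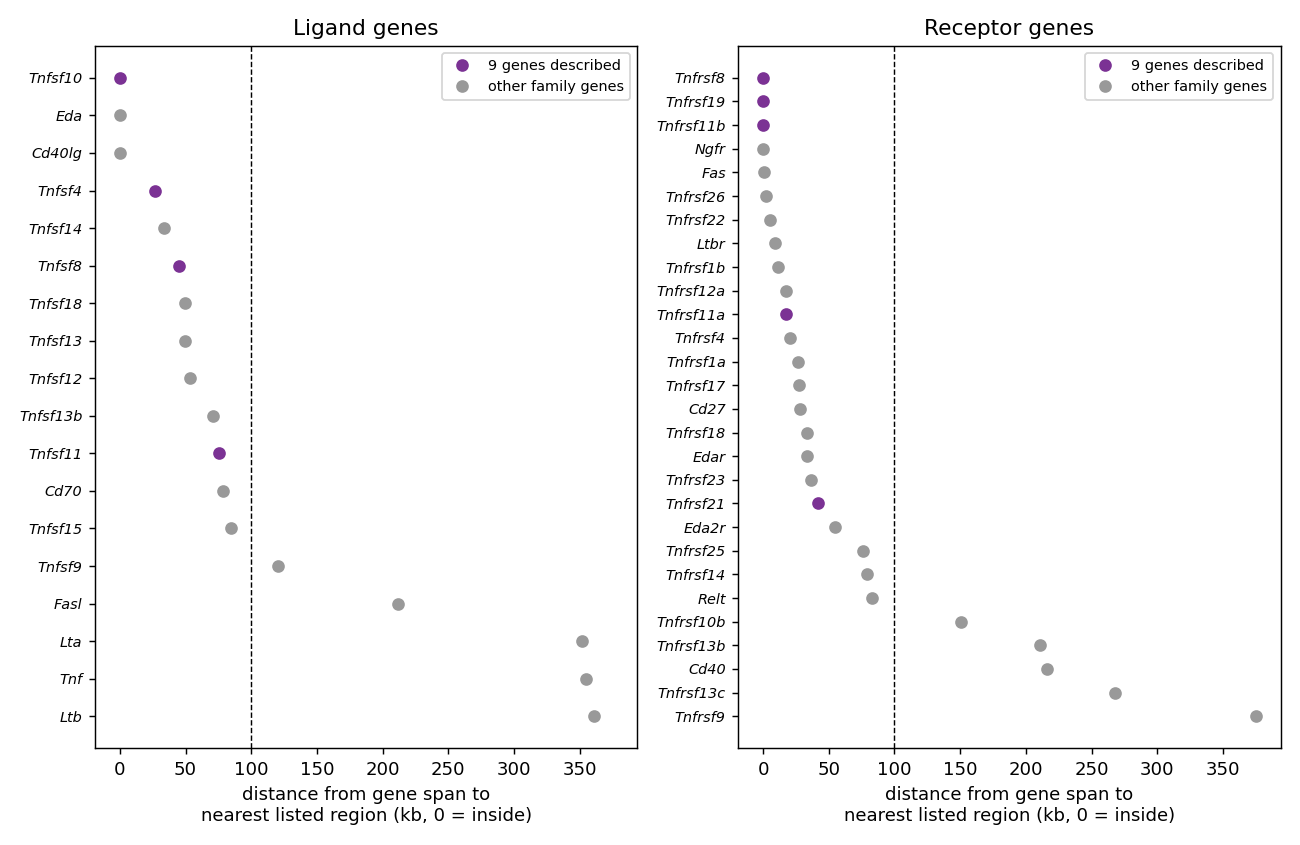
Distance in kb from the gene span to the nearest listed region (x axis, 0 where the centre lies inside) for 18 ligand and 28 receptor genes, with the 9 genes in purple, the others in grey and the 100-kb limit dashed. All 9 purple points lie left of the limit by choice, and Tnf, Lta, Ltb and Tnfrsf9 stand farthest to the right, at 351 to 375 kb.

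Genes that act downstream of RANK were searched in the same way. Of 27, 16 (59.3%) had a region within 100 kb, against 42.7% of all protein-coding genes, and 8 (29.6%) had one within 10 kb, against 15.2%. By width, 14 (51.9%) had a 143-base region, against 29.0% of all protein-coding genes, and 4 (14.8%) a 451-base region, against 19.7%. Relb, a subunit of the non-canonical NF-kB complex, held a 143-base region, 0.731 kb from its upper end. The kinase gene Map3k7 (TAK1) and the adaptor gene Traf2 had 143-base regions 1.88 and 2.70 kb outside the gene. Nfatc1, the master regulator of osteoclast formation, had 3 regions, the nearest of 451 bases at 2.15 kb. Traf6, which encodes another of the TRAF adaptors of RANK, was not among the 16.

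Genes of TNF death receptor signalling had the other width more often within 100 kb. Of 17, 10 (58.8%) had a region there, against 42.7% of all protein-coding genes. Within 10 kb it was 3 (17.6%), against 15.2%. With each region given to 1 gene it was also 3 (17.6%), against 16.9%. Both are near the share of all genes. By width, 7 had a 451-base region within 100 kb (41.2%, against 19.7% of all protein-coding genes) and 4 a 143-base region (23.5%, against 29.0%). Tnfaip3, which encodes the inhibitor A20, had a 451-base region centred 0.025 kb from a gene end. Casp8, the gene of the caspase that death receptors activate, had one centred 0.266 kb from a gene end. The nearest region to Bid was 10.0 kb away. These lists hold few genes, neighbours such as Casp8 and Cflar share regions, and the differences between lists were not tested.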

How the data were processed

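The ATAC-seq libraries, 3 from basal stem cells of inflamed prostates and 3 from those of naive prostates, were grouped by their titles. The authors deposited a single list of genomic coordinates, with no header and no value per sample. Per the submitters' processing notes, BWA 0.7.17-r1188, SAMtools, HOMER 4.8 and edgeR were used on mm10, and their roles, thresholds and any pooling are not given in the sources used here. A filter before deposit fixes which regions can appear.

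Starts, counted from 0 in the list, are printed from 1. Gene spans, biotypes and promoters came from RefSeq tables of GRCm38.p6, restricted to chromosomes 1 to 19, X and Y. Regions were placed by their centre with Python 3.11.15 and pandas 2.3.3, and the counting was tested on simulated positions. Exons and introns could not be told apart. The 9 genes and all gene lists were chosen with earlier results of these data known, so counts stand beside the share of all protein-coding genes and have no p-value. Named are the 9 genes, the gene nearest each region, the other family genes, and from each further list up to 4 genes with the region closest to a gene end. Fewer than 15 family genes per list was the condition for naming all of them, which the receptor list exceeded, so naming its genes was chosen after their positions were seen. Alternatives were other windows, 1 gene per region, any overlap, merging within 1 kb and each width alone. Results for some list genes are not reported here.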

Additional observations from a re-analysis of the deposited data

How the results depend on the processing

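No paired analysis was possible because per-library values are lacking, and no library could be left out for the same reason. Counting any overlap in place of the centre, or merging regions within 1 kb, changed none of the 8 results (regions at the 9 genes, genes of the 9 with a region, share of all protein-coding genes, and the 5 gene lists). The main values were 16 regions, 9 genes and 42.7%, with 13 ligand, 23 receptor, 16 RANK signalling, 10 death receptor signalling and 12 upstream regulator genes. Within 10 kb they were 6 regions, 4 genes and 15.2%, with 3, 8, 8, 3 and 6 list genes. Within 50 kb the share was 29.7% and the ligand list had 8. Within 250 kb there were 26 regions and the share was 65.8%. With 1 gene per region the share was 16.9% and the first 4 lists had 6, 11, 8 and 3. With the narrower regions only, the share was 29.0%, with 4 death receptor signalling and 6 upstream regulator genes. With the wider regions only there were 5 regions at 4 genes and 19.7%, with 4 ligand, 7 receptor and 4 RANK signalling genes. Among genes in the span range of the 9 the share was 48.6%. These changes follow from which positions or genes were counted and from how regions were given to genes. Depth per library is unknown, and regions short of the authors' filter are not seen.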

Other observations

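Genes known to act upstream of Tnfsf11 in bone or mammary gland were searched as a further list. Of 18, 12 (66.7%) had a listed region within 100 kb, against 42.7% of all protein-coding genes, with 451-base regions at 8 (44.4%, against 19.7% of all protein-coding genes) and 143-base regions at 6 (33.3%, against 29.0%). Pthlh, which encodes parathyroid hormone-related protein, and Ptger4, the gene of the prostaglandin E2 receptor EP4, each had a 451-base region over the RefSeq promoter window, centred 0.132 and 0.215 kb outside the gene. Esr1, the oestrogen receptor gene, had a 451-base region 3.36 kb outside. Of the progesterone, vitamin D and glucocorticoid receptor genes, Pgr held a 451-base region inside the gene, Vdr had a 451-base region 22.2 kb away, and Nr3c1 had 3 regions of 143 bases from 58.0 kb. These 3 were named after their positions were seen. The list carries no direction, so none of these positions says whether the chromatin was more or less open in inflamed cells.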
